A study of Mus musculus with 9 samples.

Results

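The unfolded protein response and the secretory machinery of the endoplasmic reticulum (ER) were examined as a set of 40 genes, out of 20732 in the count table, in group 2 innate lymphoid cells (ILC2s) of the mouse pancreas. The members were taken by symbol: 11 ER chaperones and cochaperones, 4 protein disulfide isomerases, 6 stress sensors and transcription factors, 6 genes of ER-associated degradation, 7 subunits of the Sec61 channel and the translocon-associated (Ssr) complex, 3 signal peptidase subunits and 3 subunits of the signal recognition particle. All 40 were in the table, and all 40 passed the filter on low counts. ILC2s are tissue lymphocytes without antigen receptors that secrete type 2 cytokines, and IL-33 is a cytokine that activates them through the receptor ST2.

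C57BL6/J mice received PBS (4 libraries, titled naïve by the submitters) or 200 ng of IL-33 (5 libraries) on days 0 and 1, and the pancreas was taken on day 5. The labels name no genetic modification in either group. The sort kept live CD45+ KLRG1+ cells that lacked CD3, B220 and other lineage markers, and their RNA was sequenced in bulk. Whether each library came from its own mouse is not stated, and every p-value rests on the spread among libraries, which may be technical. In bulk RNA, a different number of cells of a type and a different amount of RNA per cell cannot be told apart.

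Proteins to be secreted are led to the ER by the signal recognition particle and enter it through the Sec61 channel, where chaperones and disulfide isomerases fold them. Misfolded proteins are drawn back out and degraded. When unfolded proteins accumulate, the sensors IRE1 (Ern1), PERK (Eif2ak3) and ATF6 act through the transcription factors XBP1, ATF4 and cleaved ATF6 to raise folding and degradation genes, and the chaperone BiP (Hspa5) is the classic readout of this response. Lymphocytes that secrete large amounts of protein, such as plasma cells, are known to enlarge the ER, with XBP1 as a main regulator.

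Promoters of the genes most often read as targets of the response carry the ER stress response element (ERSE, the letters CCAAT and CCACG separated by 9 bases), bound by ATF6 and XBP1 together with the factor NF-Y, or the shorter ERSE-II (ATTGG and CCACG separated by 1 base). The 250 bases before the RefSeq start (GRCm38.p6) are shown for 5 members, each 5′ to 3′ on the gene's strand, with the fixed letters of either motif on either strand in capitals. Hspa5 is the classic target, Hsp90b1 holds 2 copies, Canx holds 1, Herpud1 holds the ERSE-II, and Sec61b, an example of the translocation genes, holds neither.
Hspa5, chr2:34771840-34772089, plus strand: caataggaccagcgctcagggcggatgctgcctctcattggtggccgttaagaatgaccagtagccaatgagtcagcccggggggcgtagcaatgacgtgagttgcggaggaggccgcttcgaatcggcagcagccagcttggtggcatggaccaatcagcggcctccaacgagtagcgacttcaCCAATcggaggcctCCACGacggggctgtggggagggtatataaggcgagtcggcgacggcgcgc
Hsp90b1, chr10:86705445-86705694, minus strand: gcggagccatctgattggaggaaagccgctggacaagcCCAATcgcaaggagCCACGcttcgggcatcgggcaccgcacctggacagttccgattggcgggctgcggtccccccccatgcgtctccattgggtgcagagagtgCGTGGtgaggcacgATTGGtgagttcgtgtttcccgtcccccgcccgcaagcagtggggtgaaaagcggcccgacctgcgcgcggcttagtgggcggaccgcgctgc
Canx, chr11:50325674-50325923, minus strand: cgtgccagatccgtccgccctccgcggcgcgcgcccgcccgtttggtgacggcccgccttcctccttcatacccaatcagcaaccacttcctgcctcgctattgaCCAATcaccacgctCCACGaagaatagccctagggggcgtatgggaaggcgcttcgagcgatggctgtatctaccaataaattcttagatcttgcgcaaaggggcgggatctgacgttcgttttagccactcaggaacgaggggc
Herpud1, chr8:94386179-94386428, plus strand: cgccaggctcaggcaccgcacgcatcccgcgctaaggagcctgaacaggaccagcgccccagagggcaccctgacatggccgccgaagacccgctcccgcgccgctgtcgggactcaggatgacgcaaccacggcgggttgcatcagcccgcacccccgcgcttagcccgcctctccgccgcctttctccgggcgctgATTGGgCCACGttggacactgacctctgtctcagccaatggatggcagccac
Sec61b, chr4:47474411-47474660, plus strand: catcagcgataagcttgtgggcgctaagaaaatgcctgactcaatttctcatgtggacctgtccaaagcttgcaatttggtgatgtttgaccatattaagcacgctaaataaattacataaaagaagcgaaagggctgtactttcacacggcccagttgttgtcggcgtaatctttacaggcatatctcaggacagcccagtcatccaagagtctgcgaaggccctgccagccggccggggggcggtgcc

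A RefSeq window of 300 bases, from 250 before to 50 after the start, was found for 33 of the 40 members. On both strands, ERSE was present in 8 of these 33 (Calr, Canx, Creld2, Dnajc3, Hsp90b1, Hspa5, Pdia6 and Syvn1) and in 0.137% of the 27025 genes with such a window. ERSE-II was present in Dnajb11 and Herpud1 and in 0.0444% of genes. Counted from the start, the first base of the motif lay at -65 in Hspa5, -145 in Canx, -52 in Herpud1, and -212 and -107 in Hsp90b1. None of the 10 targeting, translocation and signal peptidase members with a window held either motif. Sec61a1, Ssr2 and Spcs3 had no window and were not searched. The UPRE (TGACGTGG), an element for XBP1 and ATF6, and the CARE (TGATGNAAT), an element for ATF4 and CHOP, were in 0.676% and 0.965% of all windows and in 0 member windows. A match describes letters in a window, not binding.

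Of the 40 members, 12 rose with IL-33 (30%) and 3 fell (7.5%), while 25 did not pass the test. Of all 14405 genes tested, 13.7% rose and 11.6% fell (edgeR quasi-likelihood test, Benjamini-Hochberg adjusted p below 0.05). The genes that rose were Hsp90b1, Canx, Manf, Hyou1, Pdia3, Pdia4, Derl1, Sec61a1, Sec61b, Sec61g, Ssr2 and Srp14, and those that fell were Herpud1, Ern1 and Sel1l. The median log2 change, IL-33 over PBS, was 0.33 over the members and -0.05 over all genes tested. The groups did not overlap in 8 members higher and 1 lower with IL-33, against 15.3% and 10.8% of all genes tested (26.1% in either direction, and 25.2% called in either direction). By role, the calls lay mainly among translocation and folding genes, with 4 of 7 Sec61 and Ssr genes, 2 of 4 isomerases and 4 of 11 chaperones higher and 0 of these 22 lower, whereas 0 of 6 sensors and factors was higher and 1 was lower. At an unadjusted p below 0.05, edgeR gave 1 chaperone and 2 sensors and factors as lower and 0 sensors as higher. At an adjusted p below 0.05, DESeq2 gave 1 chaperone and 2 sensors and factors as lower and 0 sensors as higher. At that adjusted threshold, limma voom gave 1 chaperone and 1 sensor as lower and 0 sensors as higher.

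**Figure D1:**
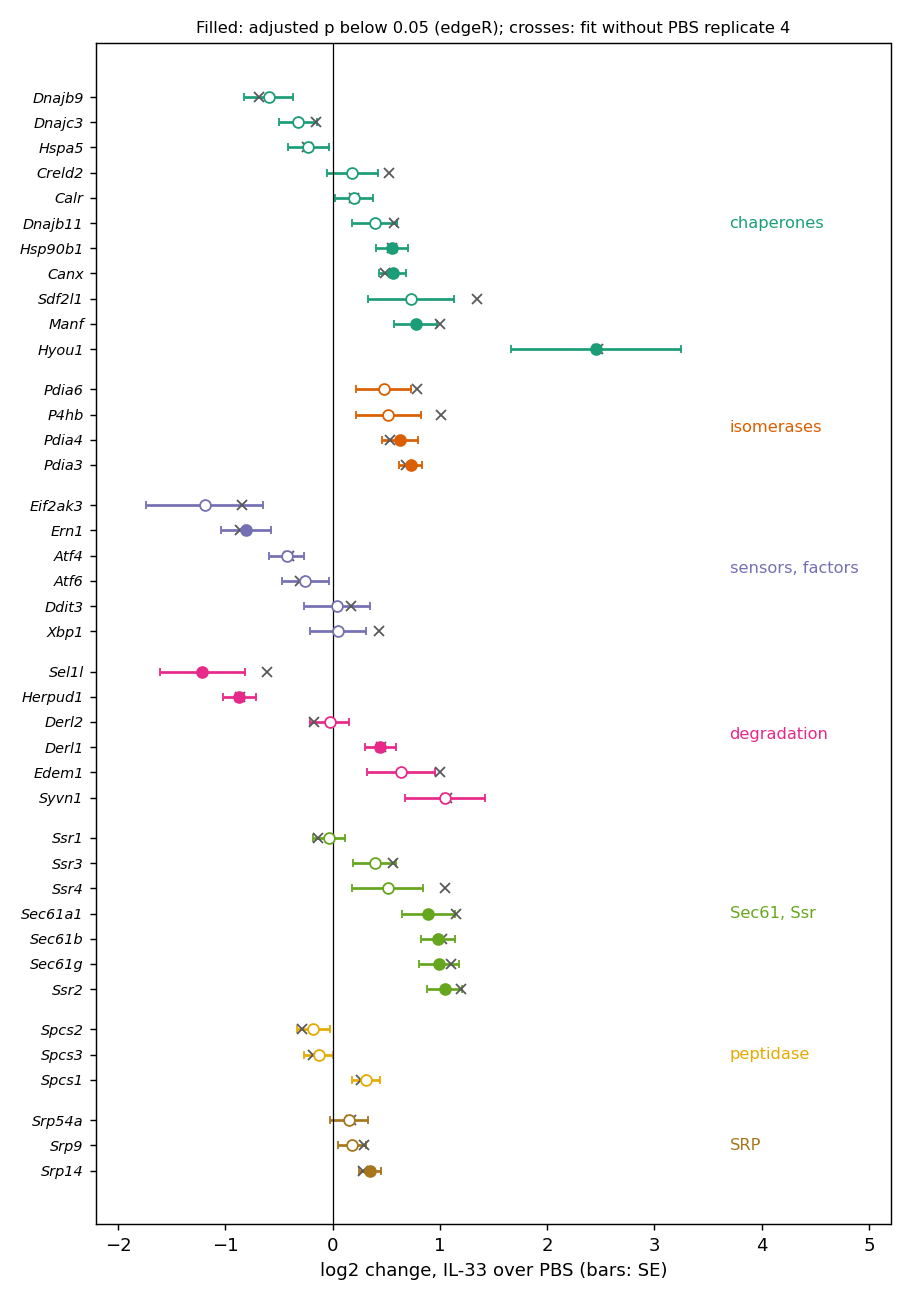
Log2 change (IL-33 over PBS, x axis, with SE bars) of the 40 members, grouped by role; filled points passed the edgeR test and crosses are the fit without PBS replicate 4. The Sec61 and Ssr genes reach 1.05 (Ssr2), while Herpud1 and Sel1l lie at -0.87 and -1.21, and crosses move to the right most for Sdf2l1, Sel1l, Ssr4 and P4hb.

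The libraries differed in RNA of pancreatic acinar cells, which secrete digestive enzymes and hold a large ER. The 39 acinar genes, all detected, took 3.16%, 0.190%, 10.7% and 56.5% of counts in PBS replicates 1 to 4. In IL-33 replicates 1 to 5 they took 17.0%, 10.2%, 9.50%, 8.30% and 0.531%. The group means were 17.6% (SD 26.3) with PBS and 9.1% (SD 5.87) with IL-33 (two-sided exact permutation test, p = 0.714). With that spread among so few libraries, the test could not show the shares to be alike. In PBS replicate 4, 13 of the 40 members were at least 1.5 times the median of the other PBS libraries. They were led by Sdf2l1 (3.46 times), Sel1l (3.29), Ssr4 (2.87), Eif2ak3 (2.68) and P4hb (2.59). Without that library, 15 members rose and 2 fell (1969 and 1726 of all 14898 genes tested), and 10 of the 15 calls were kept. Creld2, Edem1, P4hb, Pdia6, Sdf2l1, Ssr3 and Ssr4 were then called higher, and Derl1, Hyou1, Pdia4, Sel1l and Srp14 no longer passed. With the log2 of the acinar share as a covariate, 13 members rose and 3 fell (2018 and 1529 of all 14405 genes tested). In that fit Derl1 was no longer called, and Sdf2l1 and Syvn1 were newly called higher. Of the 14 genes of the ILC2 list, all tested, Gata3, Il1rl1, Klrg1, Id2 and Rora stood at 336 CPM or more in every library. Klrg1, Il13 and Il5 rose, while Il7r (-1.28, edgeR adjusted p = 0.0031), Icos (-1.50, 0.00082), Kit (-1.52, 0.00057) and Il2ra (-0.55, 0.037) fell. Of the plasma cell list, whose cells also hold a large ER, Jchain, Igha and Tnfrsf17 were at 0 or absent from the table, and its summed share was 0.0255% to 0.0629% of counts with PBS and 0.0142% to 0.0368% with IL-33. Most of that share was Ighm, at 413 to 553 CPM with PBS and 105 to 306 CPM with IL-33 (log2 change -1.61, adjusted p = 0.0048). Summed erythroid genes took 0.0142% to 0.0343% of counts with PBS and 0.0424% to 0.365% with IL-33 (Slc4a1 at 0 or absent). Eosinophil and mast cell genes took 0.00220% to 0.00558% and 0.0103% to 0.0367% (Siglecf, Epx, Mcpt4 and Tpsb2 at 0 or absent). That last sum left out Prg2, because a synonym matched the gene Plppr3 in its place. Plppr3 fell (log2 change -2.96, edgeR adjusted p = 0.011). Cpa3 rose from 9.60 to 45.8 CPM with PBS to 86.9 to 345 CPM with IL-33 (2.44, adjusted p = 0.01). Summed B cell genes took 0.000340% to 0.00286% with PBS and 0.00666% to 0.0105% with IL-33, nearly all Cd79b (log2 change 2.18, adjusted p = 0.015; Pax5 at 0 or absent). Summed endothelial genes took 0.00444% to 0.0108% and 0.00202% to 0.00635%, and Kdr among them fell (adjusted p = 0.018). Summed T cell genes took 0.0135% to 0.0325% with PBS and 0.0268% to 0.0356% with IL-33 (Cd8a and Cd4 at 0 or absent). Most of that share was Cd3g, at 221 to 298.5 CPM with PBS and 231 to 341.5 CPM with IL-33 (log2 change 0.14, edgeR adjusted p = 0.52). The part of these other cell types in the results was not tested.

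**Figure D2:**
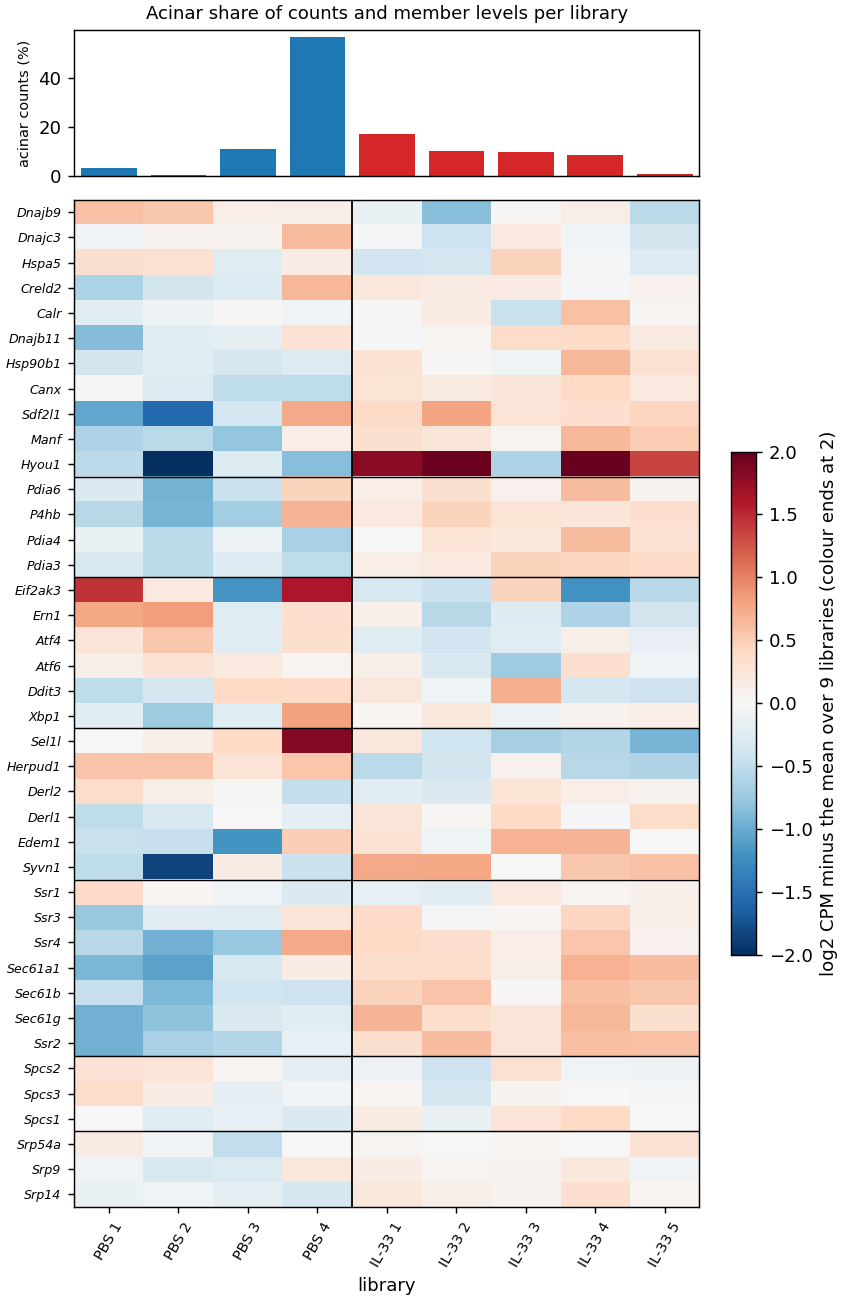
Top, share of counts in acinar genes (%) per library; below, log2 CPM of each member minus its mean over the 9 libraries, with roles separated by lines and colour ending at 2. PBS replicate 4, with 56.5% acinar counts, departs from the other PBS libraries in Sel1l, Ssr4, P4hb, Sdf2l1 and Xbp1, but not in Herpud1, Sec61b or Pdia3.

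The Sec61 channel, through which new secretory proteins cross or enter the ER membrane, rose in its 3 subunits among the members, by close to 2-fold. Sec61a2, the scarcer second form of the alpha subunit, averaged 8.47 ± 5.25 CPM (SD, n = 4) with PBS and 3.38 ± 1.47 CPM (n = 5) with IL-33, with a log2 change of -1.32 that did not pass the test (edgeR adjusted p = 0.084). Sec61b, its beta subunit (GRCm38 chr4:47474658-47483242), stood at 74.7, 54.9, 77.4 and 76.9 CPM in PBS replicates 1 to 4 and at 141, 152, 104, 156 and 149 CPM in IL-33 replicates 1 to 5. Every IL-33 library was above every PBS library. Its log2 change was 0.98 ± 0.16 (SE; edgeR adjusted p = 0.0021).

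Sec61g, the gamma subunit (chr11:16500530-16508484), stood at 53.5, 59.9, 85.5 and 89.8 CPM with PBS and at 166, 134, 123, 166 and 130 CPM with IL-33, again without overlap. Its log2 change was 0.99 ± 0.19 (edgeR adjusted p = 0.0044). The pore-forming alpha subunit Sec61a1 (chr6:88503579-88518905) stood at 106, 94.9, 161 and 220 CPM with PBS and at 253, 256, 216, 322 and 304 CPM with IL-33. The highest PBS library was replicate 4, at the level of the lowest IL-33 library. Its log2 change was 0.89 ± 0.25 (adjusted p = 0.026), and 1.15 without PBS replicate 4 (adjusted p = 0.0050). Leaving out PBS replicate 1, PBS replicate 2, IL-33 replicate 4 or IL-33 replicate 5 ended the call, with an adjusted p of at most 0.0705.

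The Ssr complex sits beside the channel and assists the entry of certain proteins and their glycosylation. Ssr2 (chr3:88575876-88588419), its beta subunit, stood at 95.7, 119, 124 and 167 CPM with PBS and at 234, 286, 223, 283 and 279.7 CPM with IL-33. All IL-33 libraries were above all PBS libraries, with a log2 change of 1.05 ± 0.17 (adjusted p = 0.0019). A pseudogene on the opposite strand overlaps 12.8% of its exons, and reads of the pair could be shared, since no label says that strand was kept. Ssr4, the delta subunit, stood at 117, 87.4, 101 and 290.5 CPM with PBS and at 225, 217, 187, 252 and 181 CPM with IL-33. Only PBS replicate 4 reached the IL-33 range, and the log2 change was 0.51 (adjusted p = 0.29) with it and 1.05 (adjusted p = 0.00189) without it. Of 12 alternatives that kept all libraries, 2 called Ssr4 higher. These were limma voom (0.81, adjusted p = 0.0361) and library size scaling (0.86, edgeR adjusted p = 0.0204). Ssr3 had a log2 change of 0.39 (adjusted p = 0.18) and Ssr1 one of -0.03 (adjusted p = 0.89, and 0.05 with library size scaling and 0.42 with the trend of change with exon length removed). The summed level of these 7 genes was 852 to 1249 CPM with PBS and 1344 to 1672 CPM with IL-33, without overlap.

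**Figure D3:**
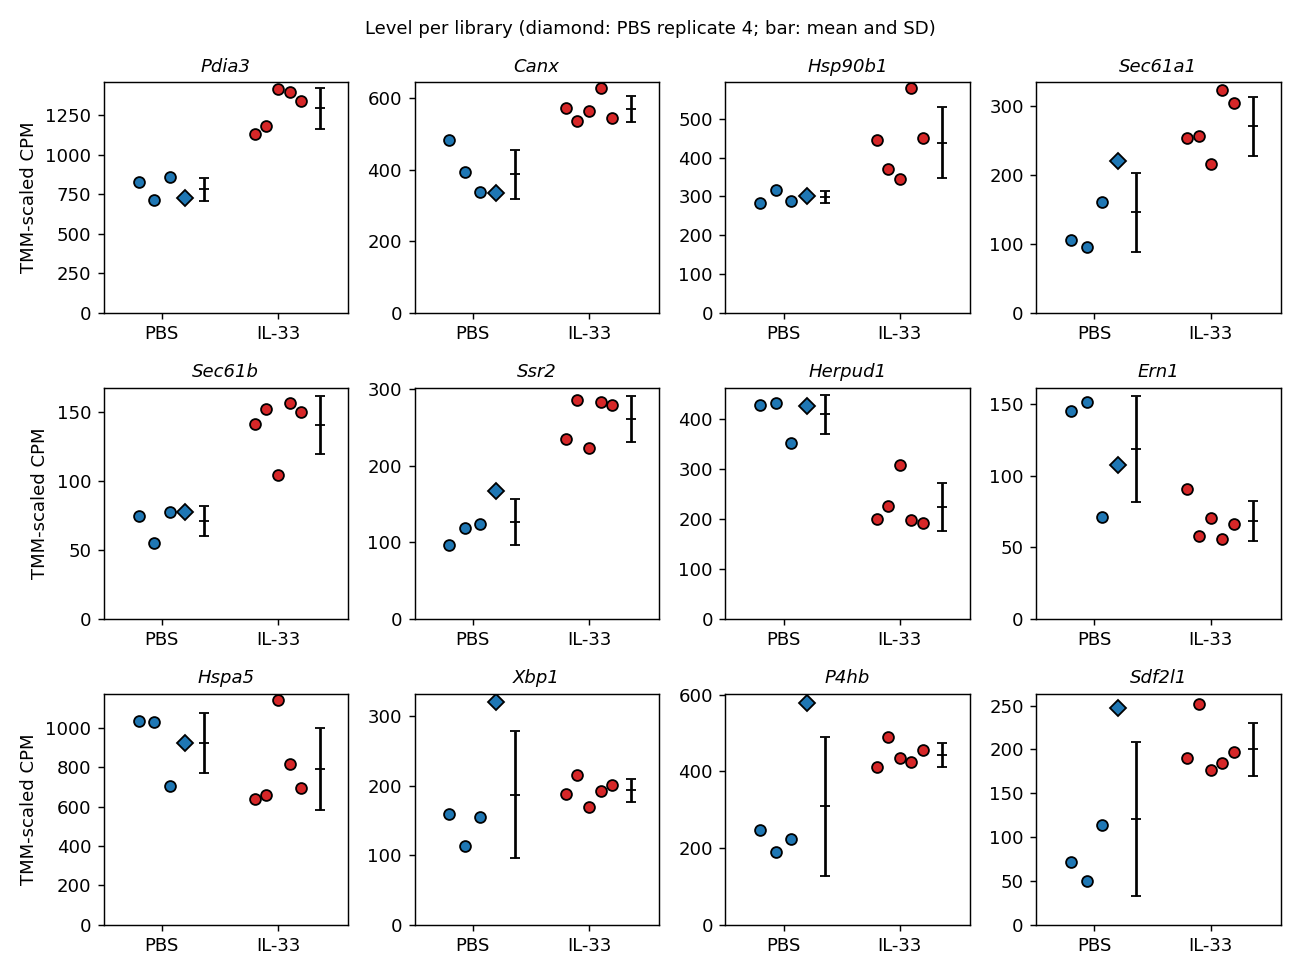
TMM-scaled CPM of 12 members in every library, 4 PBS (blue, with replicate 4 as a diamond) and 5 IL-33 (red), with mean and SD beside each group. Pdia3, Canx, Hsp90b1, Sec61b and Ssr2 are separated between the groups, Herpud1 is separated in the other direction, and in Xbp1, P4hb and Sdf2l1 the diamond lies far above the other PBS libraries.

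The signal recognition particle and signal peptidase members showed log2 changes between -0.18 and 0.35. Srp14, which with Srp9 forms the Alu domain of the signal recognition particle that slows translation, stood at 132, 135, 126 and 112.5 CPM with PBS and at 166, 156, 151, 181 and 148 CPM with IL-33. The groups did not overlap, yet the log2 change was only 0.35 ± 0.10 (adjusted p = 0.034), the call was lost without any 1 of PBS replicates 1, 2, 3 and 4 and IL-33 replicates 1, 2 and 4 (adjusted p = 0.0826 without PBS replicate 4, at most 0.0959), and the sign turned to -0.15 with the length trend removed. Srp9 had a log2 change of 0.18 (adjusted p = 0.34). Srp54a, the subunit that binds the signal sequence, had one of 0.15 (adjusted p = 0.56) and is uncertain, because near-identical copies lie beside it. The signal peptidase subunits Spcs1, Spcs2 and Spcs3, which belong to the enzyme that removes the signal sequence, had log2 changes of 0.31, -0.18 and -0.13 (adjusted p 0.11, 0.42 and 0.52). Thus 0 of 3 was called by edgeR, DESeq2 or limma voom, and 1 of 3 (Spcs1) had an unadjusted edgeR p below 0.05. An oppositely placed gene, Glt8d1, overlaps 16.3% of the exons of Spcs1, whose change turned to -0.09 with the length trend removed.

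Among the disulfide isomerases, which form and reshuffle disulfide bonds, Pdia3 and Pdia4 rose. Pdia3, the partner of calnexin and calreticulin for glycoproteins (chr2:121413775-121438687), stood at 829, 715, 859 and 726 CPM with PBS and at 1132, 1183, 1419, 1396 and 1343 CPM with IL-33. The groups lay far apart, with a log2 change of 0.73 ± 0.11 (adjusted p = 0.0015), and Pdia3 had the highest level per kilobase of exon of all 40 members in both groups (249 CPM per kilobase with PBS and 412 with IL-33). Pdia4 stood at 55.7, 42.4, 56.7 and 39.0 CPM with PBS and at 61.1, 73.8, 70.7, 94.7 and 74.5 CPM with IL-33. Its groups did not overlap either, and the log2 change was 0.63 ± 0.17 (adjusted p = 0.025), but leaving out PBS replicate 2, PBS replicate 4 (adjusted p = 0.0548) or IL-33 replicate 4 ended the call, and with the length trend removed the change was 0.38 and not called (adjusted p = 0.206). P4hb, which is also a subunit of prolyl hydroxylase, stood at 246, 188, 223 and 578 CPM with PBS and at 410 to 489 CPM with IL-33. The log2 change was 0.52 (adjusted p = 0.24), and 1.01 (adjusted p = 0.000809) without PBS replicate 4. Of 12 alternatives that kept all libraries, 2 called P4hb higher. These were limma voom (0.79, adjusted p = 0.0273) and library size scaling (0.85, edgeR adjusted p = 0.0155). Pdia6 had a log2 change of 0.48 (adjusted p = 0.20), and 0.78 (adjusted p = 0.0172) without PBS replicate 4.

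The chaperones were divided, and the classic readout did not pass the test. Hspa5 stood at 1035, 1029, 706 and 925 CPM with PBS and at 640, 658, 1143, 816 and 693 CPM with IL-33. The groups overlapped over most of their range, and the log2 change was -0.23 ± 0.19 (adjusted p = 0.43), with no alternative fit calling it. Hsp90b1 (GRP94, chr10:86690209-86705509), a chaperone of the ER lumen needed for integrins and Toll-like receptors, stood at 283, 317, 288 and 302 CPM with PBS and at 445.5, 371.5, 344.5, 579 and 451 CPM with IL-33. All IL-33 libraries were higher, by 0.56 ± 0.15 on the log2 scale (adjusted p = 0.022), although the call was lost without PBS replicate 1 (adjusted p = 0.0593). Reads of an overlapping pseudogene on the other strand (10.3% of its exons) could be shared with it.

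Canx (calnexin, chr11:50293961-50325673), the membrane lectin that retains unfinished glycoproteins, stood at 481.5, 393, 336 and 334 CPM with PBS and at 573, 537, 564, 628 and 543 CPM with IL-33. The groups were separate and the log2 change was 0.56 ± 0.12 (adjusted p = 0.0098). Its soluble counterpart Calr had a log2 change of 0.20 (adjusted p = 0.44). Manf, a small secreted ER stress protein (chr9:106838312-106891979), stood at 88.8, 93.9, 79.6 and 149 CPM with PBS and at 169, 161, 141, 215 and 193 CPM with IL-33. PBS replicate 4 alone reached into the IL-33 range. The log2 change was 0.78 ± 0.20 (adjusted p = 0.020), and leaving out PBS replicate 1, PBS replicate 2 or IL-33 replicate 4 ended the call (adjusted p at most 0.0594).

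Hyou1 (chr9:44379490-44392369), the large chaperone and exchange factor of BiP, was scarce. It stood at 2.39, 0.121, 2.84 and 1.91 CPM with PBS and at 11.99, 13.4, 2.23, 13.7 and 8.78 CPM with IL-33, and PBS replicate 2 held 2 counts. All IL-33 libraries but replicate 3 were above the PBS range. Its log2 change, 2.46 ± 0.79 (adjusted p = 0.047), was the largest of the 40, and the call was lost without any 1 of PBS replicates 1, 3 and 4 and IL-33 replicates 1, 2, 4 and 5 (adjusted p at most 0.0971).

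Sdf2l1, a partner of the BiP cochaperones, stood at 71.3, 49.9, 114 and 247 CPM with PBS and at 191, 252, 176, 184.5 and 197 CPM with IL-33. Its log2 change was 0.73 ± 0.40 (adjusted p = 0.21), and 1.34 (adjusted p = 0.00702) without PBS replicate 4. Of 12 alternatives that kept all libraries, 3 called Sdf2l1 higher. These were limma voom (1.24, adjusted p = 0.0169), the acinar covariate (0.91, edgeR adjusted p = 0.0451) and library size scaling (1.12, edgeR adjusted p = 0.0207). The J-domain cochaperones of BiP had log2 changes of -0.60 (Dnajb9, adjusted p = 0.086), 0.39 (Dnajb11, 0.20) and -0.32 (Dnajc3, 0.21). DESeq2 and limma voom called Dnajb9 lower (adjusted p 0.0303 and 0.0375). Creld2, a small ER stress protein, had a log2 change of 0.19 (adjusted p = 0.61), -0.23 with the length trend removed and 0.53 (adjusted p = 0.0181) without PBS replicate 4.

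Of the sensors and factors, Ern1 fell and the other 5 did not pass. Ern1 (IRE1, chr11:106394650-106487852), the kinase and nuclease that splices Xbp1 mRNA, stood at 146, 151.5, 71.5 and 108 CPM with PBS and at 90.8, 57.8, 70.8, 55.6 and 66.1 CPM with IL-33. PBS replicate 3 lay within the IL-33 range and the other 3 above it. The log2 change was -0.80 ± 0.23 (adjusted p = 0.031), and the call was lost without any 1 of PBS replicates 1 and 2 and IL-33 replicates 2, 3, 4 and 5 (adjusted p at most 0.0950). With the length trend removed the change was -0.49 and not called (adjusted p = 0.129), and Ern1 lay in the quintile of longest genes, whose median change was -0.47.

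Xbp1 stood at 159, 112.5, 155 and 320 CPM with PBS and at 188, 215, 170, 193 and 201.5 CPM with IL-33. PBS replicates 1 to 3 lay below all IL-33 libraries and replicate 4 above them. The log2 change was 0.05 ± 0.26 (adjusted p = 0.91), 0.43 without PBS replicate 4 (adjusted p = 0.0534) and -0.07 with the length trend removed. Gene counts do not tell spliced from unspliced Xbp1 mRNA.

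Atf6 stood at 21.2, 24.0, 22.4 and 20.2 CPM with PBS and at 21.2, 15.9, 11.95, 24.6 and 18.4 CPM with IL-33, within overlapping ranges. Its log2 change was -0.25 ± 0.22 (adjusted p = 0.44), and 0.13 with the length trend removed. Eif2ak3 (PERK) stood at 18.9, 7.90, 3.04 and 21.2 CPM with PBS and at 5.525, 5.165, 9.44, 3.001 and 4.70 CPM with IL-33. The PBS libraries spread over a wide range that included most of the IL-33 values, and the log2 change was -1.19 ± 0.55 (adjusted p = 0.14). Without PBS replicate 3 Eif2ak3 was called lower (-1.52, adjusted p = 0.0359).

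Atf4, the factor made when PERK phosphorylates eIF2alpha, stood at 129, 157.5, 93.2 and 139 CPM with PBS and at 92.3, 83.5, 92.1, 117.5 and 97.1 CPM with IL-33. PBS replicate 3 overlapped the IL-33 range, and the log2 change was -0.43 ± 0.16 (adjusted p = 0.083). Without PBS replicate 3 Atf4 was called lower (adjusted p = 0.0195), and DESeq2 called it lower too (adjusted p = 0.0313). Ddit3 (CHOP), the factor linked to cell death under lasting stress, stood at 11.98, 13.3, 22.45 and 22.3 CPM with PBS and at 19.9, 16.1, 28.1, 13.3 and 12.8 CPM with IL-33. The ranges coincided, with a log2 change of 0.04 ± 0.31 (adjusted p = 0.93), which lay between -0.32 and 0.23 over the alternatives.

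The degradation genes split. Herpud1 (chr8:94386438-94395377), an ERAD scaffold and a strong target of the stress response, stood at 427, 431, 351 and 425 CPM with PBS and at 199, 225, 307, 197 and 191 CPM with IL-33. Every IL-33 library was below every PBS library, with a log2 change of -0.87 ± 0.15 (adjusted p = 0.0033). By level per kilobase of exon, Herpud1 ranked 4 of 40 with PBS and 13 with IL-33.

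Sel1l (chr12:91806043-91849157), the adaptor of the ubiquitin ligase Hrd1, stood at 81.2, 87.2, 106 and 287 CPM with PBS and at 93.9, 61.0, 51.1, 53.8 and 42.4 CPM with IL-33. PBS replicate 4 was far above the rest and IL-33 replicate 1 lay among the PBS values. The log2 change was -1.21 ± 0.40 (adjusted p = 0.049), and -0.61 without PBS replicate 4, where it was not called (adjusted p = 0.102). It was also not called without any 1 of PBS replicates 2 and 3 and IL-33 replicates 2, 3, 4 and 5. Hrd1 itself (Syvn1) stood at 2.65 to 10.54 CPM with PBS and 9.44 to 16.3 CPM with IL-33, with a log2 change of 1.05 (adjusted p = 0.067). Of 12 alternatives that kept all libraries, 4 called Syvn1 higher. These were DESeq2 (adjusted p = 0.0326), limma voom (adjusted p = 0.0263), limma-trend and the acinar covariate (edgeR adjusted p = 0.0494). Of the 9 fits that left out 1 library, 1 called it, the fit without PBS replicate 3 (1.35, edgeR adjusted p = 0.0335).

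Derl1 (chr15:57869502-57892448), a channel component for retrotranslocation, stood at 67.0, 76.6, 95.9 and 84.5 CPM with PBS and at 114, 96.5, 125.5, 92.85 and 123 CPM with IL-33. The groups overlapped at IL-33 replicate 4 and PBS replicate 3. Its log2 change was 0.45 (SE 0.145, adjusted p = 0.0485), and leaving out any 1 of PBS replicates 1, 2 and 4 and IL-33 replicates 1, 2, 3 and 5 ended the call (adjusted p at most 0.121). Of 12 alternatives that kept all libraries, only 2 called Derl1 higher. These were DESeq2 (adjusted p = 0.0347) and limma voom (adjusted p = 0.0367). Derl2 had a log2 change of -0.03 (adjusted p = 0.93; 0.03 with library size scaling, 0.01 with the acinar covariate and 0.28 with the length trend removed). Edem1, which marks glycoproteins for degradation, had one of 0.64 (adjusted p = 0.18), and 1.00 (adjusted p = 0.0227) without PBS replicate 4.

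Of the 15 calls, 6 were kept when any 1 of the 9 libraries was left out: Canx, Pdia3, Sec61b, Sec61g and Ssr2 (higher) and Herpud1 (lower). Of these, 3 were kept in all 12 other alternatives as well, and these were Sec61b, Sec61g and Ssr2. Their log2 change was 0.54, 0.77 and 0.72 after removal of the trend with exon length. That trend ran from a median of 0.40 in the shortest quintile of all genes tested to -0.47 in the longest. Sec61b lay in the shortest quintile and Sec61g and Ssr2 in the next, whose median was 0.13. With the trend removed, 7 members rose and 2 fell, against 1395 and 1503 of all 14347 genes tested. Derl1, Ern1, Hsp90b1, Manf, Pdia4, Sel1l and Srp14 were no longer called, and Atf4 was called lower. The cause of the trend was not tested. Scaling by library size alone moved the median of all genes by 0.13 and the share of calls that were higher from 54.1% to 67.4%. Among the members it gave 11 higher and 1 lower, against 1332 and 644 of all 14405 genes tested. Canx, Derl1, Ern1, Herpud1, Hsp90b1, Pdia3, Pdia4 and Srp14 were no longer called, and Edem1, P4hb, Pdia6, Sdf2l1 and Ssr4 were called higher.

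Of the 10 members with an ERSE or ERSE-II, 2 rose (Canx and Hsp90b1) and 1 fell (Herpud1), with a median log2 change of 0.30. Of the 23 with a window and neither motif, 5 rose and 2 fell, with a median of 0.18. Of the 7 without a window, which were not searched, 5 rose (Derl1, Hyou1, Manf, Sec61a1 and Ssr2), with a median of 0.78. Over all genes tested, 13.7% rose and 11.6% fell. Herpud1 and Hspa5 had log2 changes of -0.87 and -0.23 against 0.56 for Canx and Hsp90b1. Beyond the members, 39 genes held a motif, 16 of them were tested, and 3 rose (Krtcap2, Nucb1 and Rcl1) and 2 fell (Lrif1 and Rbm39).

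Other genes of the pathway, 145 tested of 148 listed, gave 27 higher (18.6%) and 15 lower (10.3%), with a median of -0.01. The shares over all genes tested were 13.7% higher and 11.6% lower, with a median of -0.05. The largest share of higher calls was in oligosaccharyltransferase and glycan processing, with 6 of 16 higher (37.5%) and 2 lower (12.5%). This complex attaches sugar chains to proteins as they leave the Sec61 channel. Ostc rose from 95.2 ± 4.91 (SD, n = 4) to 179 ± 22.1 CPM (n = 5), a log2 change of 0.91 (adjusted p = 0.00063). Stt3a, 1 of the 2 alternative catalytic subunits, rose by 0.78 (adjusted p = 0.00090) and Ddost by 0.68 (adjusted p = 0.0023), and these 3 were kept in every alternative run. The 2 that fell, named after their values were seen, were the alternative catalytic subunit Stt3b (-0.64, adjusted p = 0.0083) and the subunit Dad1 (-0.43, adjusted p = 0.029).

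Among other targeting and translocation genes, 5 of 24 rose (20.8%) and 0 fell by edgeR (4 lower at an unadjusted p below 0.05). The shares over all genes tested were 13.7% higher and 11.6% lower. At an adjusted p below 0.05, DESeq2 called 4 of these targeting and translocation genes lower and limma voom 1. The 5 that rose by edgeR included Srp19 (0.87, adjusted p = 0.011) and the peptidase subunit Sec11c (0.40, adjusted p = 0.012). Get4 (1.13, adjusted p = 0.012), which hands tail-anchored proteins on to the ER, was also among them. Among other folding genes, 5 of 23 rose (21.7%) and 2 fell (8.7%), near the shares over all genes tested. Ero1l, the oxidase that recharges the isomerases, rose by 1.25 (adjusted p = 0.0073) and Fkbp2, a prolyl isomerase, by 0.99 (adjusted p = 0.011), whereas Txndc11 fell by 1.39 (adjusted p = 0.013).

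Among 20 other degradation genes 4 fell (20%) and 0 rose by edgeR (1 higher at an unadjusted p below 0.05), against 11.6% lower and 13.7% higher over all genes tested. At an adjusted p below 0.05, DESeq2 and limma voom called 0 of these 20 genes higher. The mannosidase-like Edem3 had a log2 change of -1.45 (adjusted p = 0.0039), Selenok one of -0.81 (adjusted p = 0.0083) and Fam8a1 one of -1.39 (adjusted p = 0.011). Of 14 other sensors and processing enzymes, 1 rose, the membrane-bound factor Creb3l2 (0.91, adjusted p = 0.046), and its call was lost without any 1 of the libraries other than PBS replicate 3 (adjusted p at most 0.117).

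In the PERK, eIF2alpha and ATF4 arm, 4 of 16 tested rose (25%) and 4 fell (25%), against 13.7% and 11.6% of all genes tested. Atf3, an inducible stress factor, fell from 596 ± 82.5 to 79.1 ± 13.2 CPM, a log2 change of -2.91 (adjusted p = 7.5e-06). Cebpb had a log2 change of -2.49 (adjusted p = 0.0032), and Ppp1r15a (GADD34), which restores translation by dephosphorylating eIF2alpha, one of -0.95 (adjusted p = 0.012). Eif2s1, which encodes eIF2alpha, rose by 0.80 (adjusted p = 0.0022). The other 3 that rose, named after their values were seen, were Ddit4 (1.80, adjusted p = 0.016), Slc7a11 (1.62, adjusted p = 0.0156) and Sesn2 (1.41, adjusted p = 0.033), and the other that fell was Eif2ak4 (-1.35, adjusted p = 0.046). Atf3, Cebpb and Ppp1r15a are also induced by stimuli other than ER stress, and the route of their change was not tested. Asns had a log2 change of -0.15 (adjusted p = 0.90; 0.46 with library size scaling, 0.47 with the acinar covariate), and Trib3 and Chac1, which reached at most 54 and 96 counts in any library, were not tested.

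Among 32 genes of transport between ER and Golgi, 6 rose (18.8%) and 3 fell (9.38%), near the 13.7% and 11.6% of all genes tested. The 3 that fell had the smallest adjusted p: Sec16a (-1.50, adjusted p = 0.00084), which organises ER exit sites, Sec24d (-0.82, adjusted p = 0.0052), a cargo adaptor of the COPII coat, and Arf4 (-0.85, adjusted p = 0.0062), a GTPase of the Golgi. The receptors that return ER proteins from the Golgi did not pass, with log2 changes of 0.44 for Kdelr1 (adjusted p = 0.37), 0.53 for Kdelr2 (adjusted p = 0.093, and 0.0208 without PBS replicate 4) and -1.40 for Kdelr3 (adjusted p = 0.55), which turned to 0.75 with the acinar covariate.

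**Figure D4:**
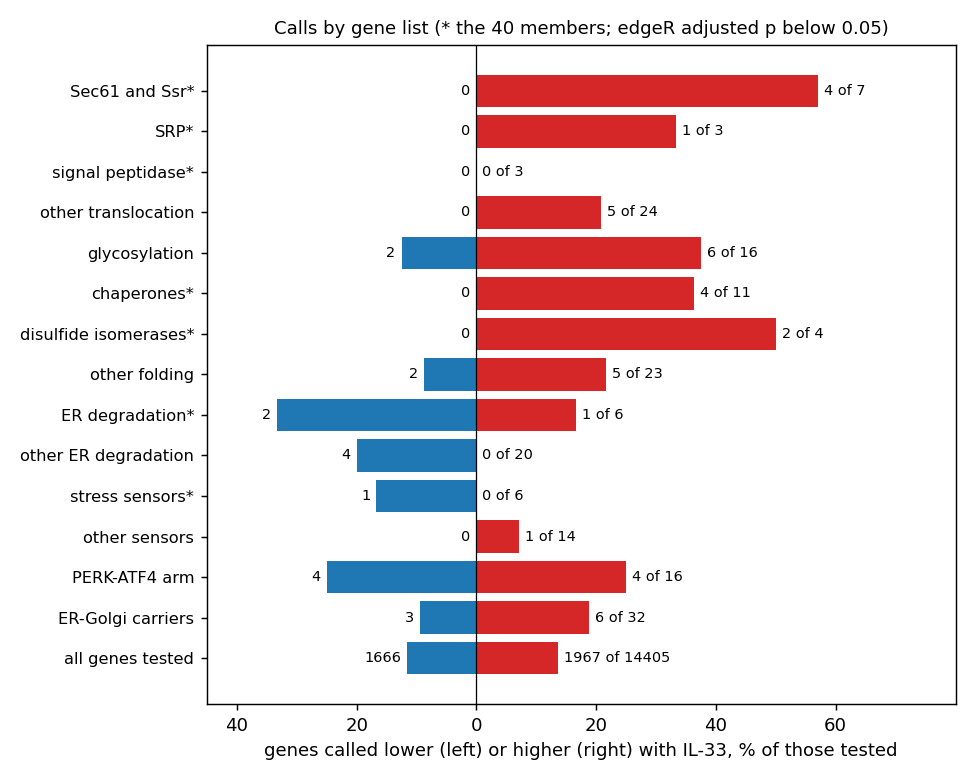
Share of tested genes called lower (left, blue) or higher (right, red) with IL-33, in % of each gene list, with counts printed; asterisks mark the lists that make up the 40 members, and the bottom bar is all 14405 genes tested. The Sec61 and Ssr list has 4 of 7 higher and 0 lower, while the other degradation list has 4 of 20 lower and 0 higher.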

How the data were processed

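Messenger RNA was measured in 9 libraries of sorted pancreatic ILC2s (4 PBS, 5 IL-33), grouped by sample title. The series' design text instead gives 5 PBS and 4 IL-33 mice. Il13 stood at 54.6 to 139 CPM in the 4 libraries titled naïve and at 822 to 2234 CPM in the 5 titled IL-33. Il5 stood at 327 to 384 and 1036 to 2150 CPM. Per the labels' protocols, libraries came from 5 to 15 ng of RNA and were read as pairs of 150 nt. The authors deposited whole-number counts per gene and a normalized signal, which equals the deposited counts divided by 1 factor per library. The submitters' processing notes name STAR 2.7.7a, Salmon 1.6.0, FastQC 0.11.9, Trimmomatic 0.39, DESeq2, Picard and GRCm38.p6, with no roles; the role of each is not given in the sources used here. Total counts were 14216976 to 21020023 per library. Of 20732 genes, 20607 (99.4%) matched a GENCODE M21 symbol.

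Counts were tested with edgeR 4.0.16 (R 4.3.3; TMM, minimum count 10, robust quasi-likelihood F-test, two-sided, Benjamini-Hochberg over 14405 genes, threshold 0.05). CPM are TMM-scaled, and the factor was 0.5325 in PBS replicate 4 and 0.990 to 1.17 elsewhere. SE is the log2 change over the square root of F. On simulated counts over 13824 genes the step called 22.6% of the 93 genes given a 2-fold change and 52.7% of the 93 given a 4-fold change. It made 1 false call. In that simulation 13638 genes were left unchanged, whereas 25.2% of genes tested were called in the data. The adjustment is stricter where fewer genes change, so these shares do not give the power in these data. True changes can still be missed. No pair of replicates was a duplicate (16 pairs, lowest chi-square per degree of freedom 52.6). Promoters are from RefSeq. All members are named; full statistics are given for called members and the main stress genes, and from each pathway list the 3 genes with the smallest adjusted p, plus the KDEL receptors and Ppp1r15a, Trib3, Chac1 and Asns. Members and lists were chosen with earlier results of these data known. Alternatives were RLE or library size scaling, other filters (none, or 5 CPM in 4 libraries), the replicate block and acinar genes removed. Further ones were the log2 of the acinar share as a covariate, the length trend removed and a threshold of 0.01. The last were DESeq2 1.42.0, limma 3.58.1 (voom, and limma-trend on the authors' signal as log2 with 1 added) and each library left out.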

Additional observations from a re-analysis of the deposited data

Results flagged for a closer look

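Of 128 groups of libraries tested, over members and named pathway genes, 11 held 1 library far from the rest of its group, and chance alone gives about 1 in 20. Of these 11, 5 were PBS replicate 4, the library with 56.5% acinar counts, as the highest of its group: Dnajc3 at 304 CPM, P4hb at 578 CPM, Sel1l at 287 CPM, Ssr4 at 290.5 CPM and Kdelr3 at 15.9 CPM. In other PBS libraries, Herpud1 was lowest in replicate 3 at 351 CPM, Sec61b lowest in replicate 2 at 54.85 CPM and Sec11c highest in replicate 1 at 395 CPM. In the IL-33 group, Sdf2l1 was highest in replicate 2 at 252 CPM, Spcs3 lowest in replicate 2 at 194 CPM and Srp54a highest in replicate 5 at 30.7 CPM.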

How the results depend on the processing

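Of 840 results for members over 21 alternatives, 692 kept their direction and side of the threshold, 94 were no longer called, 27 were newly called and 27 turned in sign, Srp14 being the only called member among the latter. Against 12 members higher and 3 lower, the number higher was 5 at a threshold of 0.01 and 7 with the length trend removed, and the number lower was 1 at 0.01, 1 with library size scaling and 5 with DESeq2. Over all genes tested, 1967 were higher and 1666 lower in the main fit, and 1019 and 767 at 0.01. These all-gene counts were 1395 and 1503 of 14347 with the length trend removed, 1332 and 644 with library size scaling, and 2462 and 2588 of 16342 with DESeq2. Leaving out 1 library at a time gave 6 to 15 members higher and 1 to 4 lower, against 1445 to 1969 higher and 1193 to 1726 lower over all genes tested. The cause was not tested.

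With the replicate number as a block, 5 members were higher and 0 lower by edgeR (15 and 2 at an unadjusted p below 0.05). Over all 14405 genes tested, 791 were higher and 666 lower with the block, against 1967 and 1666 without it. Same-numbered libraries did not deviate together (correlations -0.0283, -0.048, -0.0225 and 0.069), so the numbers were not taken as pairs.

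These signs turned. Ddit3 was -0.002 with RLE and with DESeq2, -0.006 with limma-trend and -0.32 with the length trend removed, and -0.17 to 0.19 leaving out 1 library. With the length trend removed, Creld2 was -0.23, Atf6 0.13, Xbp1 -0.065, Derl2 0.28, Ssr1 0.42, Spcs1 -0.093 and Srp14 -0.15. Library size scaling gave Derl2 0.033, Ssr1 0.046 and Asns 0.46, and the acinar covariate Derl2 0.011, Asns 0.47 and Kdelr3 0.75. The replicate block gave Asns 0.23 and Kdelr3 0.83, voom 0.95 and 2.85, and limma-trend 0.43 and 1.21. Leaving out 1 library gave Derl2 -0.17 to 0.10, Ssr1 -0.14 to 0.11, Xbp1 -0.13 to 0.43, Asns -0.50 to 1.14 and Kdelr3 -1.82 to 1.59. Depth limits the scarce members: Hyou1 had as few as 2 counts.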
